A study of Mus musculus with 14 samples.

Results

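A set of 9 transcription factors grouped under retinal pigment epithelium (RPE) identity was examined: Mitf, Otx2, Otx1, Sox9, Pax6, Tfec, Lhx2, Six3 and Rax. These 9 genes were listed by name, with earlier results of these data known, among 34452 mouse genes in the count table. All 9 passed the filter on low counts, which left 16289 genes for testing. RNA was measured in RPE-enriched eyecups from rd1 mice aged 20 postnatal days. These are FVB/N mice, an albino strain whose rods die early because Pde6b function is lost. Each of 7 mice gave 2 libraries. The Nrf2 eye had received an AAV8 vector with human NFE2L2 cDNA under the human Best1 promoter, together with a 7m8-capsid AAV that drives GFP from the same promoter. The control eye had received only the AAV that drives GFP from that promoter. Thus 2 things set the Nrf2 eye apart, the transgene itself and a further vector with a different capsid. The promoter is meant to limit the transgene to RPE, but the libraries were made from RNA released by eyecups after the retina and outer tissue had been removed, without a sort.

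The RPE arises from the optic vesicle, the same neuroepithelium that forms the neural retina. Mitf and Otx factors direct the pigmented fate and activate melanin genes, whereas Rax, Six3, Lhx2 and Pax6 act first in the whole eye field and later have different roles in retina and RPE. In the mature RPE, Sox9 and Otx2 act on visual cycle and other RPE genes, and Nrf2, the factor supplied by the vector, activates antioxidant genes through antioxidant response elements.

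Total counts were 16451241 to 50110846 per library without the vector transcript. Levels below are given in CPM, counts scaled to a common library size, with TMM factors that align the bulk of genes between libraries. The vector transcript ranged from 1148 to 9842 CPM in Nrf2 eyes and from 0.99 to 1162 CPM in control eyes, so the library labelled control 3 held as much as the library labelled Nrf2 4. These libraries were also the most alike of all 91 library pairs, with a median absolute log2 difference of 0.117 over genes against 0.201 for the next pair. The 9 factors differed between them by at most 8.14%. The result for each factor and gene list is therefore also given with mice 3 and 4 left out (5 mice). RPE genes were abundant, with Rpe65, the retinoid isomerase of the visual cycle, at 722 to 2103 CPM in control eyes, but mouse Best1 itself reached only 0.803 to 3.69 CPM there. Where a level differs in such bulk samples, fewer cells of a type and less RNA per cell cannot be told apart.

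No factor passed the paired test. Of the 9 genes, 0 had an adjusted p under 0.05 in the edgeR quasi-likelihood test, against 3.43% of all genes tested, 2.94% being higher and 0.491% lower in Nrf2 eyes. At an unadjusted p under 0.05 there was 1 gene, Pax6, against 18.1% of all genes. The same count of the 9 was 2 with DESeq2 and 6 with the limma voom fit with sample quality weights. The share of all genes at this level is not given for those fits, so these counts cannot be read against it. At the adjusted threshold DESeq2 and voom called 11.9% and 15.9% of all genes, and 1 and 2 of the 9. The median log2 fold change of the 9 was 0.16 and that of all genes was -0.04. The estimates of 4 genes lay within 0.25 of 0 on the log2 scale (Lhx2, Sox9, Six3 and Otx2), and the widest departure of a well-measured factor was that of Pax6.

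**Figure D1:**
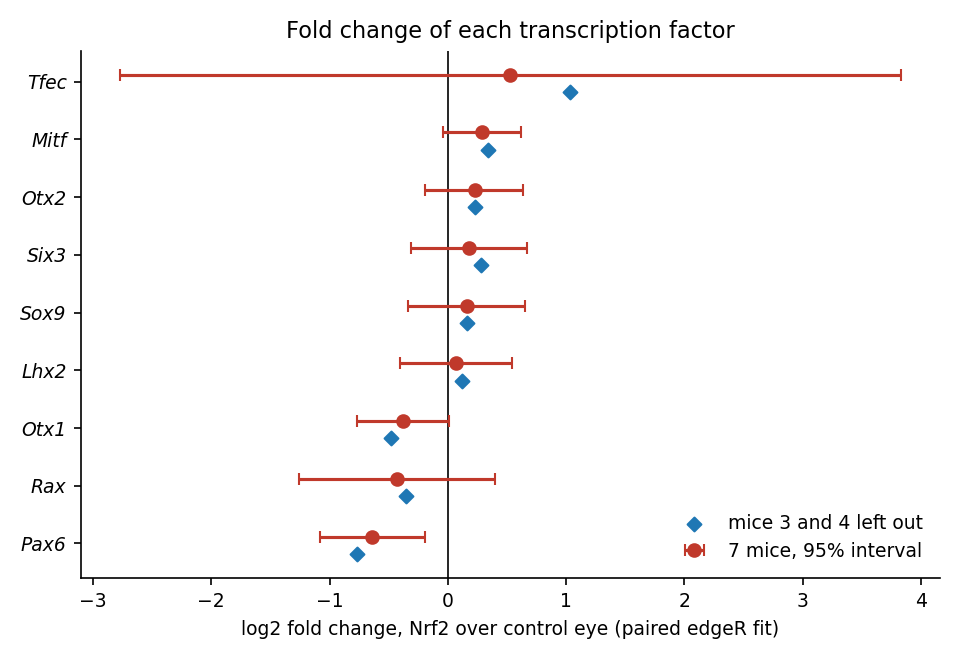
Log2 fold change (Nrf2 over control eye, x axis) of each transcription factor (y axis) in the paired edgeR fit. Red circles with bars are the estimate and 95% interval from 7 mice, and blue diamonds are the estimate with mice 3 and 4 left out. The Pax6 interval, -1.08 to -0.19, is the only one that does not include 0, before adjustment for the number of genes.

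**Figure D2:**
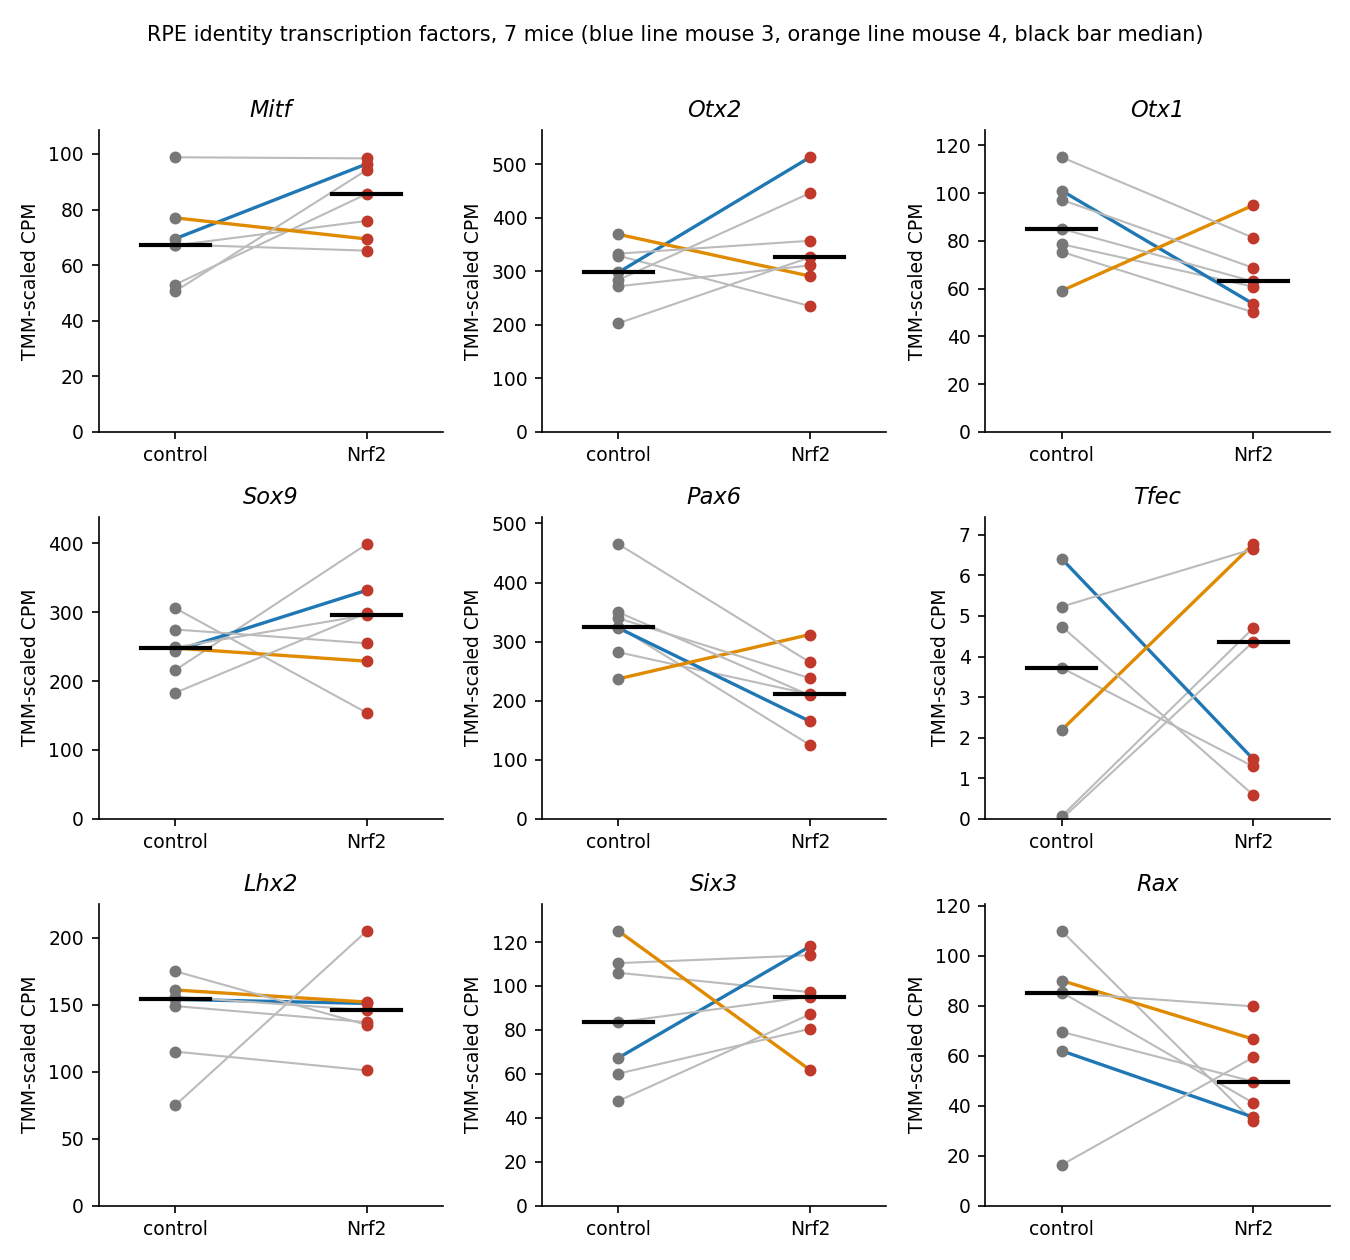
Level of each transcription factor (y axis, TMM-scaled CPM, from 0) in the control and Nrf2 eye of 7 mice (x axis), with a line joining the eyes of 1 mouse and a black bar at the median. Pax6 and Otx1 were lower in the Nrf2 eye of 6 of 7 mice, the exception being mouse 4 (orange), while Lhx2 and Rax were higher in mouse 6 alone of the 7.

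Pax6, the paired-domain and homeodomain factor of eye development, stood lower in Nrf2 eyes without passing the adjusted threshold. Its gene (ENSMUSG00000027168) lies on chromosome 2 from 105668900 to 105697364 (plus strand, GRCm38). The count adds up transcripts from several starts, so the windows around both starts listed by RefSeq (build GRCm38.p6), from 250 bases before to 50 after the start, are shown for the factor with the widest change. Capitals mark the antioxidant response element core TGACNNNGC, searched on both strands.
Pax6 start 1, chr2:105668646-105668945, plus strand: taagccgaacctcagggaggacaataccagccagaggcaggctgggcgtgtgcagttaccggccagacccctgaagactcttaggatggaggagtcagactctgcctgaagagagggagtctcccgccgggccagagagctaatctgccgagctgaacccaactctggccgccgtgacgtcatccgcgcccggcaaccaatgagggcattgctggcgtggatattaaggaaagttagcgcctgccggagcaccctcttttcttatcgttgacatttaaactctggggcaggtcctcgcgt
Pax6 start 2, chr2:105682213-105682512, plus strand: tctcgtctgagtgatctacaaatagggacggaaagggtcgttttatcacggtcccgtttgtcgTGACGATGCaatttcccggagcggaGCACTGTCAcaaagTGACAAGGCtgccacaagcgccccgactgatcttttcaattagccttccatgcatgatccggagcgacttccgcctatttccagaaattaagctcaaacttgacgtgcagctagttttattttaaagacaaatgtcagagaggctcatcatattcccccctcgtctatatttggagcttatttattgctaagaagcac
The first window held no match and the second held 3, beginning at bases 64, 89 and 103 from its 5′ end. A match is a description of the letters, not a binding site, and 12.4% of all 32851 RefSeq windows of this length held at least 1.

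In control eyes Pax6 ranged from 237 to 465 CPM with a median of 325, and in Nrf2 eyes from 125 to 312 CPM with a median of 211. Nrf2 1 and Nrf2 3 were the lowest of all 14 libraries at 125 and 165 CPM, and control 5 was the highest. The groups overlapped through mouse 4, in which the control eye (237 CPM) was below the Nrf2 eye (312 CPM). The paired log2 fold change was -0.64 (SE 0.19, 95% interval -1.08 to -0.19), a fold of 0.644. Its unadjusted p was 0.0101 and its adjusted p was 0.131. Pax6 was lower in the Nrf2 eye of 6 of 7 mice, and the exact two-sided sign-flip permutation test gave p = 0.0312, where 0.0156 is the smallest possible.

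Without mice 3 and 4, Pax6 ranged from 125 to 265 CPM in Nrf2 eyes and from 282 to 465 CPM in control eyes. These ranges did not overlap, which held in this direction for 2.06% of all genes. The log2 fold change over those 5 mice was -0.77 (SE 0.17) with an adjusted p of 0.0535 in edgeR, a test that called 4.59% of all genes. Other settings moved Pax6 past the threshold. Without mouse 4, the only mouse with more Pax6 in its Nrf2 eye, the log2 fold change was -0.80 (edgeR adjusted p 0.013). That fit called 12.2% of genes. Leaving out any other single mouse gave an edgeR adjusted p of 0.142 (mouse 2) to 0.306 (mouse 7). DESeq2 gave -0.62 and an adjusted p of 0.0209, with 11.9% of genes called. The limma voom fit with sample quality weights gave -0.82 and 0.00734, with 15.9% of genes called.

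Otx1 (ENSMUSG00000005917, chromosome 11, 21994764 to 22002897, minus strand), the homeodomain partner of Otx2 in specifying RPE, followed Pax6 across libraries. It ranged from 59.1 to 115 CPM in control eyes with a median of 85.0, and from 50.1 to 94.9 CPM in Nrf2 eyes with a median of 63.0. As with Pax6, control 5 was the highest library and Nrf2 1 the lowest. The log2 fold change was -0.38 (SE 0.17, 95% interval -0.77 to 0.01, adjusted p 0.287), with a lower level in 6 of 7 mice and an exact sign-flip permutation p of 0.109. Without mice 3 and 4 it was -0.48 (SE 0.10) with an adjusted p of 0.0467, the only factor past the threshold in that fit. Without mouse 4 alone it was -0.55 with an adjusted p of 0.0123, and voom with quality weights gave -0.55 and 0.0257. With any other single mouse left out, the edgeR adjusted p of Otx1 was 0.281 (mouse 2) to 0.525 (mouse 3).

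Transcripts of surface epithelium moved in the same mice as Pax6 and Otx1. Pax6 is known to be made in corneal and conjunctival epithelium as well as in retina and RPE. The 7 marker genes of surface epithelium (Krt5, Krt14, Krt12, Krt13, Krt4, Krt15 and Trp63) summed to 1905 to 57150.2 CPM in control eyes and to 2375 to 24293 CPM in Nrf2 eyes, with medians of 23748 and 7326 CPM. The sum was lower in the Nrf2 eye of 6 of 7 mice. The exception was again mouse 4, at 22092 CPM in the Nrf2 eye and 1905 CPM in the control eye. Krt15, the most abundant of the 7, had a log2 fold change of -1.77 (adjusted p 0.264). None of the 7 passed the edgeR threshold over all mice. An unadjusted p under 0.05 was reached by 2, against 18.1% of all genes. DESeq2 called 4 and voom 2, all lower, where 11.9% and 15.9% of all genes were called. Without mice 3 and 4, Krt4, Krt13 and Krt14 were lower, with adjusted p of 0.032, 0.019 and 0.0404 in edgeR. That fit called 4.59% of all genes.

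The 3 libraries with the lowest epithelium sums were control 4, Nrf2 7 and Nrf2 1, and they held Pax6 at 237, 209 and 125 CPM and Otx1 at 59.1, 63.0 and 50.1 CPM. The 3 with the highest sums were control 2, control 5 and control 6, which held Pax6 at 282, 465 and 339.5 CPM and Otx1 at 78.6, 115 and 97.2 CPM. Where sums were alike, Pax6 differed between some libraries and was close between others. Control 1 and Nrf2 3 stood at 10518 and 10836 CPM of epithelium genes and at 325 and 165 CPM of Pax6. Control 2 and Nrf2 5, at 24368 and 24293 CPM, held 282 and 265 CPM. Control 3 and Nrf2 4, the most alike library pair, held 323 and 312 CPM at sums of 23748 and 22092 CPM. The part of surface epithelium in the Pax6 and Otx1 differences was not tested.

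**Figure D3:**
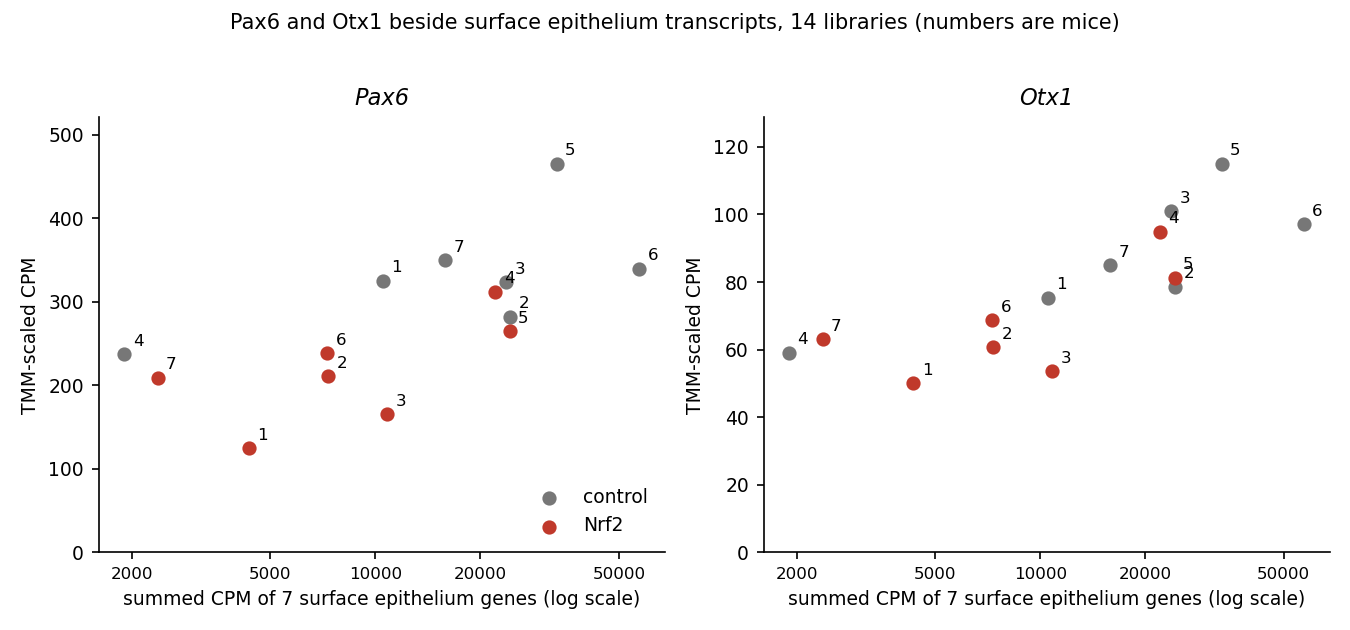
Pax6 (left) and Otx1 (right) level (y axis, TMM-scaled CPM) against the summed CPM of 7 surface epithelium genes (x axis, log scale) in 14 libraries, grey for control and red for Nrf2, numbered by mouse. Libraries with low sums, such as control 4 and Nrf2 1, sit low on the y axis. At similar sums control 1 (325 CPM) lies above Nrf2 3 (165 CPM) in Pax6, while control 2 (282 CPM) lies near Nrf2 5 (265 CPM).

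The Nrf2 eyes can also be ordered by their vector transcript. From the highest (9842 CPM, Nrf2 1) to the lowest (1148 CPM, Nrf2 4), in the order of mice 1, 7, 3, 6, 2, 5 and 4, Pax6 stood at 125, 209, 165, 238, 211, 265 and 312 CPM. In the same order Otx1 stood at 50.1, 63.0, 53.6, 68.7, 60.8, 81.3 and 94.9 CPM. The Nrf2 eyes with the least vector transcript, of mice 5 and 4, held the most of both factors, and they also had the highest epithelium sums among Nrf2 eyes (24293 and 22092 CPM). Nrf2 4 was also the library most like control 3, which held 1162 CPM of the vector transcript. The relation with the vector was not tested.

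Mitf, the basic helix-loop-helix leucine zipper factor that directs pigment cell fate, did not pass the test. Mitf (ENSMUSG00000035158, chromosome 6, 97807052 to 98021349, plus strand) is read from several starts that give isoforms of different tissues, and the gene count does not separate them. The window of its second RefSeq start is printed because it is the one of 3 that held any match. Capitals mark TGACNNNGC and the OTX core TAATCC, on both strands.
Mitf start 2, chr6:97929567-97929866, plus strand: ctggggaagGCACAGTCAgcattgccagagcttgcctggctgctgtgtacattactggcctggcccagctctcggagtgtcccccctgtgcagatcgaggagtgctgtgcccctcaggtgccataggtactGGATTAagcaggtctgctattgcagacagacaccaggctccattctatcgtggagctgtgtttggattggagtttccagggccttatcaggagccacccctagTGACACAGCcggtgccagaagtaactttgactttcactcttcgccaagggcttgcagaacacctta
It held 2 matches to TGACNNNGC, at bases 10 and 235, and 1 to TAATCC at base 132, a motif found in 7.06% of all windows. RefSeq windows were at hand for 6 of the 9 factors, 13 in all. TGACNNNGC was in 5 of the 13, TAATCC in 2, the E-box CATGTG in 1 and the E-box CACGTG in 0. Of all windows, 12.4%, 7.06%, 14.2% and 7.15% held these motifs in the same order. The 13 windows are not independent, since some belong to the same gene and those of Otx2 starts 1 and 2 overlap.

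Mitf ranged from 50.6 to 98.8 CPM in control eyes with a median of 67.4, and from 65.2 to 98.4 CPM in Nrf2 eyes with a median of 85.6. Nrf2 eyes of mice 1, 2, 3 and 6 exceeded their partners, while mouse 7 was the highest in both groups. It differed by a log2 fold change of 0.29 (SE 0.14, 95% interval -0.04 to 0.62, adjusted p 0.334), with 4 mice higher and 3 lower and an exact sign-flip permutation p of 0.156. Over 5 mice it was 0.34 (adjusted p 0.321).

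Tfec, a relative of Mitf that RPE also makes, was the scarcest factor and the least certain. Tfec (ENSMUSG00000029553, chromosome 6, 16833373 to 16898441, minus strand) ranged from 0 to 6.41 CPM in control eyes with a median of 3.72, and from 0.588 to 6.77 CPM in Nrf2 eyes with a median of 4.36. Control 6 had 0 counts, which allows up to 0.132 CPM for 3 counts, and control 2 stood at 0.0652 CPM. Its log2 fold change was 0.53 (SE 1.45, 95% interval -2.77 to 3.83, adjusted p 0.884). Tfec was higher in the Nrf2 eye of 4 mice and lower in 3, and over 5 mice the log2 fold change was 1.03 (adjusted p 0.839). The estimate turned to -0.26 without mouse 2 and to -0.26 without mouse 6, the mice whose control libraries held 2 and 0 Tfec counts.

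In contrast to Tfec, Otx2, the homeodomain factor needed for RPE specification and for photoreceptors, was the most abundant of the 9 per length. It (ENSMUSG00000021848, chromosome 14, 48657677 to 48673819, minus strand) ranged from 203 to 369 CPM in control eyes with a median of 298, and from 235 to 513 CPM in Nrf2 eyes with a median of 326. Nrf2 3 and Nrf2 1, the lowest libraries for Pax6, were the highest for Otx2 at 513 and 446 CPM. The paired estimate for Otx2 was a log2 fold change of 0.23 (SE 0.18, 95% interval -0.19 to 0.64, adjusted p 0.541), with 5 mice higher and 2 lower and an exact sign-flip permutation p of 0.281. Over 5 mice it was again 0.23 (adjusted p 0.588).

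Sox9, the HMG-box factor that acts with Otx2 on visual cycle genes, varied in step with Otx2. Sox9 (ENSMUSG00000000567, chromosome 11, 112782224 to 112787760, plus strand) ranged from 183 to 306 CPM in control eyes with a median of 248, and from 154 to 399 CPM in Nrf2 eyes with a median of 296. Both factors were lowest in control 5 among control eyes and in Nrf2 2 among Nrf2 eyes. For Sox9 the log2 fold change was 0.16 (SE 0.22, 95% interval -0.34 to 0.65, adjusted p 0.738), with 4 mice higher and 3 lower. Over 5 mice Sox9 was at 0.16 (adjusted p 0.826).

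Lhx2, the LIM-homeodomain factor of the eye field, was lower in 6 of 7 mice, although its estimate was above 0. It (ENSMUSG00000000247, chromosome 2, 38339281 to 38369733, plus strand) ranged from 74.9 to 175 CPM in control eyes with a median of 154, and from 101 to 205 CPM in Nrf2 eyes with a median of 146. The log2 difference between eyes was -0.38 to -0.02 in those 6 mice and 1.45 in mouse 6, which held the lowest control and the highest Nrf2 library. For Lhx2 the log2 fold change was 0.07 (SE 0.21, 95% interval -0.40 to 0.54, adjusted p 0.896) and -0.16 without mouse 6 (adjusted p 0.361). Over 5 mice, mouse 6 among them, it was 0.12 (adjusted p 0.868).

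Rax, the retinal homeobox factor that begins eye formation, showed the same exception. Rax (ENSMUSG00000024518, chromosome 18, 65928277 to 65939787, minus strand) ranged from 16.3 to 109.8 CPM in control eyes with a median of 85.1, and from 33.7 to 79.7 CPM in Nrf2 eyes with a median of 49.6. The log2 difference between eyes was -1.7 to -0.09 in 6 mice and 1.86 in mouse 6. For Rax the log2 fold change was -0.43 (SE 0.36, 95% interval -1.26 to 0.40, adjusted p 0.561), with an exact sign-flip permutation p of 0.406. Without mouse 6 it was -0.77 with an adjusted p of 0.093. With mouse 6 kept and mice 3 and 4 left out it was -0.35 (adjusted p 0.758).

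Six3, the Six-family homeodomain factor that favours retina over RPE, ran against Pax6 and Otx1 between libraries. Six3 (ENSMUSG00000038805, chromosome 17, 85613608 to 85629302, plus strand) ranged from 47.7 to 125 CPM in control eyes with a median of 83.5, and from 61.8 to 118 CPM in Nrf2 eyes with a median of 95.2. Control 4, the lowest control library for Pax6, was the highest for Six3. For Six3 the log2 fold change was 0.18 (SE 0.21, 95% interval -0.31 to 0.67, adjusted p 0.698), with 5 mice higher and 2 lower. Over 5 mice Six3 was at 0.28 (adjusted p 0.39).

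The library labelled control 6 was the lowest control library for 5 of the 9 factors, namely Mitf, Tfec, Lhx2, Six3 and Rax. It also had the highest surface epithelium sum of all 14 libraries (57150.2 CPM) and the lowest control sum of the 12 pigment genes below (6115 CPM). Transcripts of the opposite strand could not be told apart, since the amplification kit does not mark strand. Raxos1 shares 1604 exon bases with Rax, Otx2os1 shares 154 with Otx2, and Gm28528 and Six3os1 share 168 and 106 with Six3.

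Per length, Otx2 came first and Tfec last, and the order between them depended on the length used. Dividing control medians by the median length of protein-coding transcripts gave, in CPM per kilobase, 175 for Otx2, 131 for Lhx2, 117 for Pax6, 60.0 for Sox9, 50.9 for Rax, 47.8 for Otx1, 31.7 for Mitf, 29.4 for Six3 and 3.15 for Tfec. The ranges over the 7 control eyes of neighbours in this order overlapped except between Pax6 and Sox9 and between Six3 and Tfec. With the union of all exons as length, Otx2 remained first (70.6) and Tfec last (0.664). Sox9 then came second at 60.0, above Pax6 at 27.8. The step between Pax6 and Sox9 and the middle of the order thus depend on the length used.

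Over the 14 libraries the factors fell into sets that varied together, given here as a description because the libraries are pairs from 7 mice and share the cell mixtures above. Pax6 and Otx1 had a Pearson r of log2 CPM of 0.93, with 0.88 in the 7 control and 0.95 in the 7 Nrf2 libraries. Otx2 and Sox9 had an r of 0.83. Otx2 ran against Pax6 (r = -0.75) and Six3 against Otx1 (r = -0.84). Lhx2 and Tfec had an r of 0.71 over all libraries, with 0.92 in control but 0.12 in Nrf2 libraries. The control value includes control 6 and control 2, which held 0 and 2 Tfec counts. These were also the lowest control libraries for Lhx2, at 74.9 and 115 CPM. Mitf was not above 0.54 in r with any other factor.

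**Figure D4:**
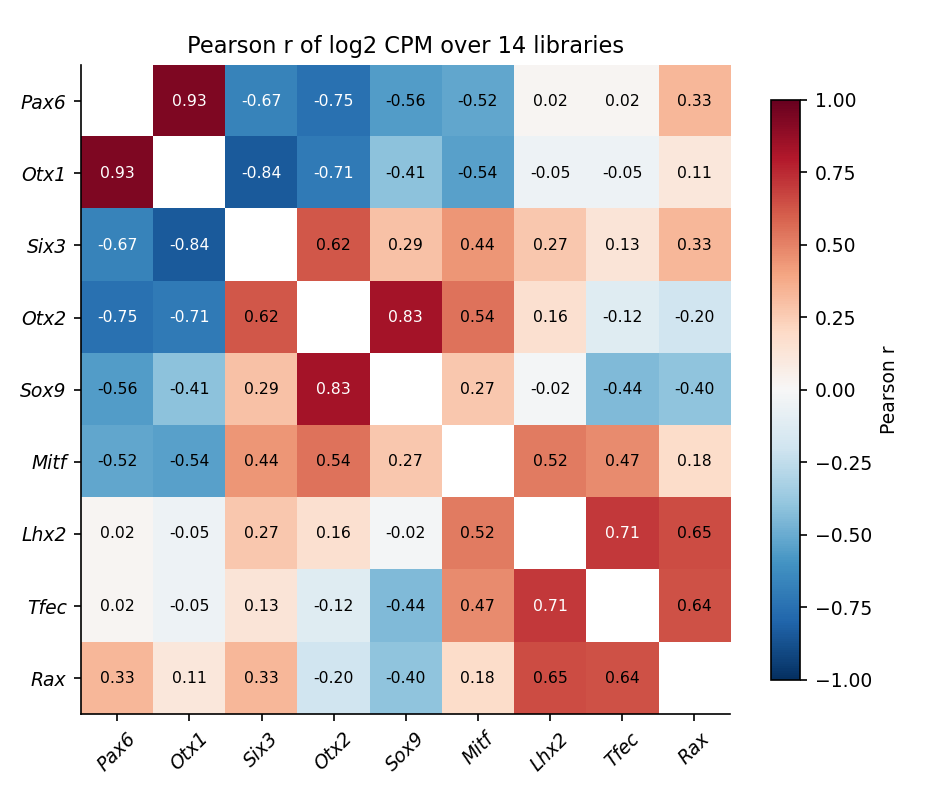
Pearson r of log2 CPM between each pair of the 9 transcription factors (both axes) over 14 libraries, with colour from blue (-1) to red (1). Pax6 with Otx1 (0.93) and Otx2 with Sox9 (0.83) are the highest values, and Six3 with Otx1 (-0.84) is the lowest.

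Among 11781 protein-coding genes with a mean of at least 5 CPM, the 3 most like each factor were ranked by r over 14 libraries. They were Efnb1, Rnf19a and Blnk for Otx1 (r = 0.97, 0.96 and 0.96), and Tnfaip8, Blnk and Arhgef19 for Pax6 (0.94 each), so Blnk was named for both. Mitf was most like Npc2, Bdh2 and B2m (0.91, 0.91 and 0.89), and Tfec most like Tacr3, Lrrn4cl and Tagln (0.98, 0.97 and 0.96). Otx2 was most like Gm20425, Slc4a2 and 0610012G03Rik (0.95 each), and Sox9 most like Impa2, Synpo and Irs2 (0.93, 0.93 and 0.92). Lhx2 was most like Slc41a3, Fndc10 and Selenom (0.95, 0.95 and 0.93). Rax was most like Minar2, Chrdl1 and Colgalt2 (0.97, 0.96 and 0.96). Six3 was most like Abhd6, Slc25a22 and Sall2 (0.92, 0.90 and 0.90).

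Genes known to be activated by Mitf gave no call either. Of 12 pigment genes tested, 0 passed the threshold in either direction, and their median log2 fold change was 0.12. At an unadjusted p under 0.05 there was 1, Tyr, which DESeq2 called and voom did not. Pmel, the melanosome matrix protein and the most abundant of them, stood at 1907 to 8003 CPM in control eyes and 3215 to 7091 CPM in Nrf2 eyes (log2 fold change 0.13, adjusted p 0.888). Tyr, the tyrosinase that begins melanin synthesis, was higher in the Nrf2 eye of 7 of 7 mice, by 0.52 on the log2 scale (SE 0.17), with an adjusted p of 0.159 in edgeR. Over 5 mice 0 of the 12 were called, with a median of 0.18.

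Of 14 differentiated RPE genes, 1 was lower, 0 were higher and 13 did not pass the test, with a median log2 fold change of -0.17. Among all genes tested, 0.491% were lower. Rpe65 fell from a control median of 1147 CPM to 232 CPM in Nrf2 eyes, a paired difference of -2.17 on the log2 scale (SE 0.37) that held in 7 of 7 mice and had an adjusted p of 0.0198. Over 5 mice Rpe65 was at -2.59 (adjusted p 0.0169) and was again the only one of the 14 called, with a list median of -0.23. The other 13 included Ttr, the thyroxine carrier secreted by RPE and the most abundant of the list, at a log2 fold change of 1.58 (adjusted p 0.103, higher in 6 of 7 mice), and both DESeq2 and voom called it. Hence Rpe65 passed the threshold in samples in which neither Otx2 nor Sox9 did, and whether these changes differ from one another was not tested.

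Close relatives of the 9 factors were not called. Of 10 listed, 9 were tested and 0 passed (1 at an unadjusted p under 0.05, 1 lower with DESeq2 and 1 with voom), with a median log2 fold change of -0.08. Tfeb, the lysosomal relative of Mitf and the most abundant, had a log2 fold change of -0.08 (adjusted p 0.815). Over 5 mice 0 relatives were called, with a median of -0.05.

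Transcription factors of the neural retina were lower in most Nrf2 eyes without a call. Of 21 listed genes 14 were tested and 0 passed, with 4 at an unadjusted p under 0.05, 5 lower with DESeq2 and 5 with voom. Among all genes, 18.1% reached that unadjusted p, and DESeq2 and voom called 11.9% and 15.9%. Their median log2 fold change was -1.52, and their sum was 78.6 to 624 CPM in control eyes and 38.3 to 223 CPM in Nrf2 eyes, lower in 6 of 7 mice. Control 1 and control 4 held the most, at 624 and 481 CPM, and were also the highest control libraries for Rax, with 109.8 CPM in control 1, and Six3, with 125 CPM in control 4. Nrf2 1 and Nrf2 3 had the lowest sums of all libraries, at 38.3 and 48.1 CPM. They held Rax at 33.7 and 35.4 CPM but Six3 at 114 and 118 CPM. Over 5 mice 0 of the list were called, with a median of -1.09. The part of retained neural retina in the levels of Rax and Six3 was not tested.

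Cone genes were the group with calls among retinal markers. Of 8 tested, 2 were lower, Opn1sw, the short-wavelength opsin (log2 fold change -5.12, adjusted p 0.0469), and Gnat2, the cone transducin (-1.69, adjusted p 0.0294). Of all genes, 0.491% were lower in that edgeR fit. DESeq2 called 6 and voom 8, all lower, where 11.9% and 15.9% of all genes were called. Over 5 mice 1 was called, Gnat2 (adjusted p 0.0158), against 4.59% of all genes. Opn1sw was then at -5.20 with an adjusted p of 0.109, and the list median was -3.02. The most abundant, Arr3, cone arrestin, had a log2 fold change of -4.73 and an adjusted p of 0.0543. The cone sum was 41.3 to 921 CPM in control eyes and 18.4 to 96.6 CPM in Nrf2 eyes, lower in 7 of 7 mice. The 8 rod genes, led by Sag, had 0 calls, a median of -1.57 and median sums of 111 CPM in control and 11.6 CPM in Nrf2 eyes. An unadjusted p under 0.05 was reached by 4, against 18.1% of all genes. DESeq2 and voom called 4 and 5 rod genes, all lower. Over 5 mice rods had 0 calls and a median of -1.61.

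In the remaining lists of marker genes 0 genes passed in edgeR. An unadjusted p under 0.05 was reached by 1 amacrine and ganglion, 1 Muller glia, 2 macrophage and 1 endothelial gene, and by 18.1% of all genes. DESeq2, which called 11.9% of all genes, had 1 bipolar and 1 amacrine and ganglion gene lower, and 2 macrophage genes higher and 1 lower. The voom fit, which called 15.9%, had 1 bipolar and 2 Muller glia genes lower. It had 2 amacrine and ganglion genes lower and 1 higher. The median log2 fold changes were -1.73 for 5 bipolar genes (most abundant Prkca), -1.14 for 4 amacrine and ganglion genes (Slc6a9) and -0.81 for 6 Muller glia genes (Dkk3). They were 0.21 for 4 melanocyte and Schwann cell genes (Kit), -0.06 for 4 mast cell genes (Tpsb2) and 1.15 for 8 macrophage genes (Csf1r, itself at -0.76 with an adjusted p of 0.14). They were -0.18 for 6 endothelial genes (Plvap), 0.33 for 6 fibroblast genes (Dcn) and 0.13 for 6 lens genes (Cryaa). Over 5 mice 0 genes of these lists were called, and the medians were -1.44, -1.43, -0.67, 0.18, 0.02, 1.51, -0.15, 0.50 and -0.36 in the same order, with 6 rather than 4 amacrine and ganglion genes tested. Despite medians below 0, the summed CPM of bipolar genes was lower in 3 mice and higher in 4. That of amacrine and ganglion genes was lower in 2 mice and higher in 5. The Muller glia sum was lower in 6 mice and higher in 1. These sums give most weight to abundant genes, Prkca, Slc6a9 and Dkk3 having the highest means at 31.1, 326 and 1348 CPM. Prkca and Slc6a9 were each higher in 5 mice and lower in 2, and Dkk3 was lower in 6 and higher in 1. The sums thus need not follow the other genes of a list. Mitf is also made in melanocytes, mast cells and macrophages, whose marker sums were 108 to 352, 1.41 to 20.5 and 105 to 330 CPM in control eyes and 127 to 349.6, 0.388 to 25.4 and 125 to 508 CPM in Nrf2 eyes. The part of these cells in the Mitf level was not tested.

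**Figure D5:**
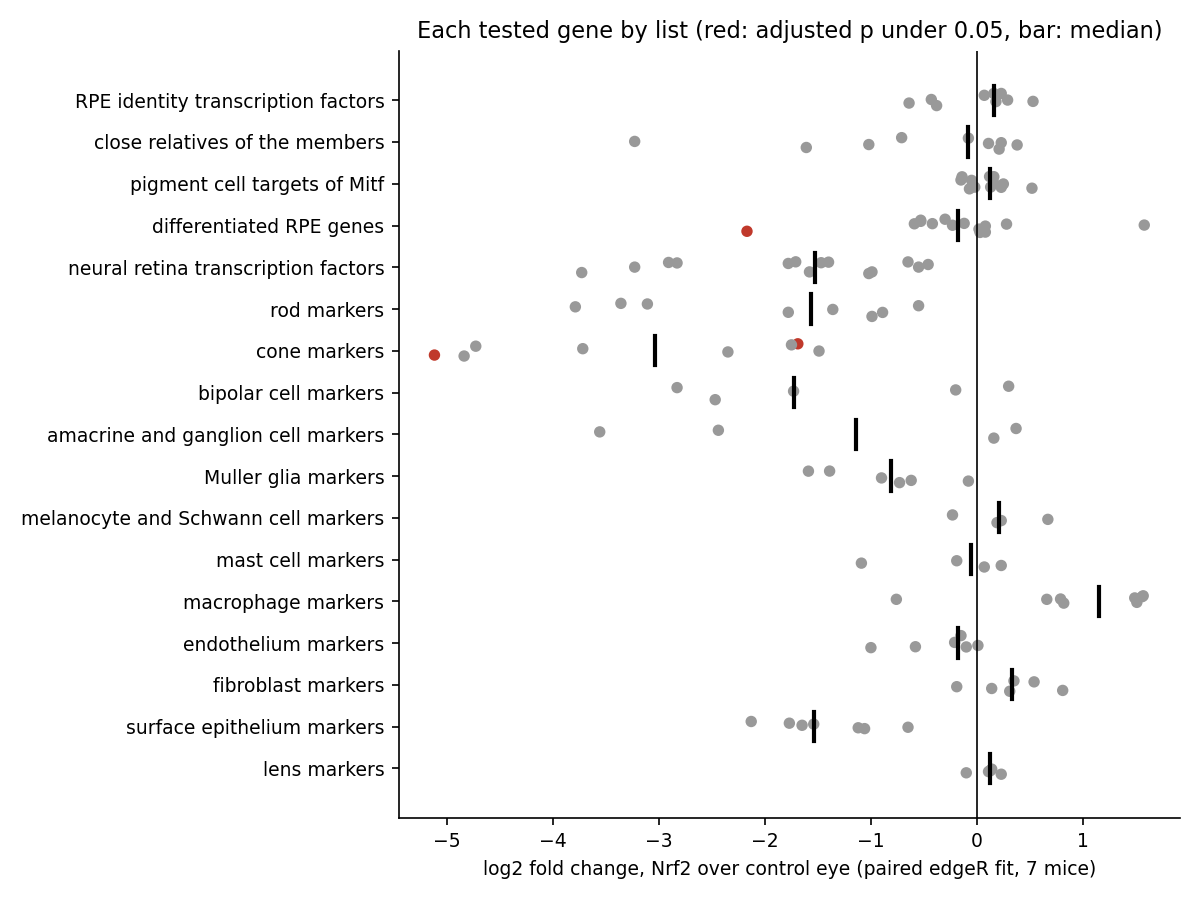
Log2 fold change (x axis, Nrf2 over control eye, paired edgeR fit of 7 mice) of each tested gene in 17 lists (y axis), with red for adjusted p under 0.05 and a black bar at the median of a list. The medians of the transcription factors (0.16), pigment genes (0.12) and RPE genes (-0.17) lie near 0, and those of the retinal and surface epithelium lists lie below 0.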

How the data were processed

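The authors isolated RNA from eyecups, amplified it with a low-input kit and aligned reads to mm10 with Ensembl release 91 annotation. The labels name Salmon 0.9.1 and describe 2 sequencing runs, without saying which library was in which. The values deposited by the authors are estimated counts per gene, in whole numbers and not normalized. The step that made them is not given in the sources used here. The human NFE2L2 row, the vector transcript, was left out of tests and library totals. The labels number both eyes of an animal alike, so the fit had mouse and treatment as terms. The study's methods state fewer pairs at this age than the labels do, and all 7 labelled pairs were used. As a check of pairing, each library was centred on its group and both eyes were correlated over 12853 genes, with r of 0.012, 0.054, 0.068, -0.409, 0.397, -0.238 and 0.179 in mice 1 to 7.

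The quasi-likelihood test of edgeR 4.0.16 (R 4.3.3) was run on rounded counts, with TMM and filterByExpr (minimum count 10), and adjusted by the Benjamini-Hochberg method over all 16289 genes tested, with a threshold of 0.05. There were 6 residual and 2.68 prior degrees of freedom, and SE was derived from the F statistic. Log2 CPM had a prior count of 2. The sign-flip test used all 128 patterns of paired differences. The fits were tested on simulated data. The floor of 3 counts reflects counting error alone, because PCR copies of a molecule were not identified. Of the gene rows, 34401 matched GENCODE M21 (GRCm38), the source of positions and lengths, and promoter windows came from RefSeq.

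The members and lists were chosen with earlier results of these data known. Genes were named by rule: all 9 factors, list genes past the threshold, the most abundant gene of each list, the 3 genes most like each factor, Rpe65 and the vector transcript. Not every gene named by the rule is reported here. Krt4, Krt13, Krt14, Tyr and the antisense genes were named after their values were seen. Alternatives were no replicate block, RLE, DESeq2 1.42.0, limma 3.58.1 voom with quality weights, no filter, a mean count of 10, each mouse left out, mice 3 and 4 left out and, added after seeing the data, library sizes recomputed after the filter.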

Additional observations from a re-analysis of the deposited data

How the results depend on the processing

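The count of all differing genes, 559, became 1100 with no replicate block, 1943 with DESeq2, 2594 with voom and quality weights and 347 with no filter, and ranged from 97 to 1995 with 1 mouse left out. The count of the 9 factors called, 0, became 1 with DESeq2 (Pax6), 2 with voom (Pax6 and Otx1) and 1 with mice 3 and 4 left out (Otx1), and ranged from 0 to 2 with 1 mouse left out, the 2 being Pax6 and Otx1 without mouse 4. The unpaired fit, with no replicate block, called 0 of the 9. Pax6 passed the threshold with DESeq2 (-0.62) and voom (-0.82), and ranged from -0.80 to -0.51 with 1 mouse left out. Otx1 passed with voom (-0.55) and with mice 3 and 4 left out (-0.48), and ranged from -0.55 to -0.27. Lhx2 changed sign with voom (-0.02) and without mouse 6 (-0.16), and ranged from -0.16 to 0.15. Tfec changed sign with voom (-0.78) and without mouse 2 or mouse 6 (-0.26 each), and ranged from -0.26 to 1.30. The cause was not tested. The other 5 factors kept their direction under all 15 alternatives, with no adjusted p under the threshold. The count of 0 for Tfec in control 6 allows up to 0.132 CPM.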
